A study of Mus musculus with 12 samples.

Results

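The 41 genes described here encode the enzymes of glycolysis and their regulators, the glucose and lactate transporters, the kinases that act on pyruvate dehydrogenase, and further targets of the hypoxia-inducible factors (HIF). They were taken by name from a list, and each name was matched to its Ensembl row among the 55416 genes of the table. All 41 were found, all 41 passed the filter on low values, and none had 0 reads in any library. By role they comprise 2 glucose transporters, 9 genes of upper glycolysis, 4 bifunctional PFKFB enzymes, 7 genes of lower glycolysis, 4 lactate genes, 4 genes of pyruvate dehydrogenase and 11 other HIF targets.

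The data are poly(A) RNA-seq profiles of cultured neonatal mouse cardiomyocytes in 4 groups of 3 libraries. Cells received PBS or phenylephrine (PE), an adrenergic agonist that makes cardiomyocytes grow, for 24 hours. Each treatment was combined with a GapmeR, a synthetic DNA-like strand that pairs with a chosen RNA and has the cell's RNase H cut it. The GapmeR was either a negative control or one against lincRNA-p21, and the groups are called PBS control, PBS knockdown, PE control and PE knockdown below. The labels name 1 lincRNA-p21 GapmeR, no strain of the mice and no age in days. They name no separate cultures or animals behind the replicates, so every p-value speaks only of how these libraries vary, and that variation may be technical.

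Glycolysis splits glucose into pyruvate in the cytosol. Lactate dehydrogenase and the monocarboxylate transporters let a cell turn pyruvate into lactate and export it. Pyruvate dehydrogenase instead turns pyruvate into acetyl-CoA inside the mitochondrion, unless a Pdk kinase phosphorylates it. HIF is a transcription factor whose alpha subunits are marked for destruction by the Egln prolyl hydroxylases when oxygen is present, and many glycolytic genes are among its known targets. Heart muscle after birth moves from glucose towards fatty acids as its fuel, and overloaded or failing heart is known to move part of the way back.

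Values are normalised read counts, which are reads divided by 1 size factor per library, and a change is the difference of group means of log2(value + 1) with its limma standard error. Recovered reads in genes ran from 21325485 to 22139681 per library. Ankrd37 was the lowest member, with 2 reads in its lowest library. The target of the GapmeR, lincRNA-p21 (Trp53cor1), was lower with it, with log2 changes of -2.03 ± 0.30 in PE and -2.10 ± 0.30 in PBS. The 9 cardiomyocyte markers were all present, with summed values of 645125 to 1543313 in single libraries, and markers of fibroblasts, endothelium, leukocytes and smooth muscle were also present in every library. Of 5 erythroid genes, 4 were at 0 in at least 1 library. In such mixed bulk RNA, fewer cells of a type and less RNA per cell cannot be told apart. In 3 groups the library farthest from its mates was replicate 2 of PBS control, replicate 2 of PBS knockdown and replicate 1 of PE knockdown, at root mean square log2 distances of 0.262, 0.373 and 0.284. These 3, chosen from earlier results, are called the distant libraries, although replicate 1 of PBS knockdown lay at 0.271 and the other 8 lay at 0.153 to 0.204. Counts of members are given with and without the 3.

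The promoters of 39 members were read from RefSeq (GRCm38.p6) as windows from 250 bases before to 50 bases after the transcription start, 1 window per gene. Slc2a4 and Ndrg1 had no match. HIF is known to bind a short core, searched here as ACGTG and GCGTG on both strands, where a palindromic CACGTG counts on each strand. At least 1 of these motifs was present in 32 of the 39 windows (82.1%), against 43.8% of 32851 mouse promoter windows of the same length. That background counts every window, also where a gene has several, and was not matched for base composition. Among members that rose with PE in control cells, 11 of 12 windows held a motif, among those that fell 7 of 9, and among those not called 14 of 18. The motif was thus present in most windows whichever way the gene moved, and it is a match of letters, not a measured site.

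The 250 bases before the start are printed for 2 members that rose with PE, Slc16a3 and Hk2, and for 2 that fell, Pdk1 and Bnip3, because all 4 are known HIF targets and moved in opposite directions. Capitals mark ACGTG or GCGTG, or their reverse complements CACGT and CACGC where the motif lies on the other strand. A motif that begins in the last printed bases runs past the start. The Slc16a3 window is chr11:120948817-120949066 on the plus strand, inside the annotated span of the gene. Hk2 lies at chr6:82774455-82774704 on the minus strand, just upstream of the gene. The Pdk1 window is chr2:71872974-71873223 on the plus strand and that of Bnip3 is chr7:138909507-138909756 on the minus strand.
Slc16a3: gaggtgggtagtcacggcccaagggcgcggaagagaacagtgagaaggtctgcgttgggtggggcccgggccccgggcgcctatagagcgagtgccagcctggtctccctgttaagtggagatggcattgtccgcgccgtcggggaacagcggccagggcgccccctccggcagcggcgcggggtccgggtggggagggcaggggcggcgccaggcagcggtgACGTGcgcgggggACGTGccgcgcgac
Hk2: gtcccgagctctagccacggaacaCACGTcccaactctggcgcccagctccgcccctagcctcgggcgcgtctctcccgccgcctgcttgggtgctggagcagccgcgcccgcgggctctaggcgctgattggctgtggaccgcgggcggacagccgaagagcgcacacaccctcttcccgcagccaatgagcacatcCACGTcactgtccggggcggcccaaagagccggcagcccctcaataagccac
Pdk1: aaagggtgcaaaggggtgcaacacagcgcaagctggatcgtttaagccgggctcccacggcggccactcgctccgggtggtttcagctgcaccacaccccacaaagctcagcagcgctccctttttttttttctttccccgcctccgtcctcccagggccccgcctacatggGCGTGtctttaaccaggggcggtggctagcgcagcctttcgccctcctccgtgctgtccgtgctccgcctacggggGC
Bnip3: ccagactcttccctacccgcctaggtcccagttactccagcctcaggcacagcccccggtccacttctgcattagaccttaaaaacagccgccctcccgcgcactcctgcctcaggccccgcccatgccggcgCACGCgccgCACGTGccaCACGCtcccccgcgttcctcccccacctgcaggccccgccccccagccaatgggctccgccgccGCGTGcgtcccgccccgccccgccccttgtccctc
Slc16a3 and Hk2 hold 2 copies of ACGTG each, and the 2 copies in Slc16a3 stand 13 bases apart close to the start. Pdk1 holds GCGTG and Bnip3 holds both forms.

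Levels between genes were compared per kilobase of the longest coding transcript, on the scale of normalised reads per kb in PBS control. Gapdh was the most abundant member at 54544, followed by Aldoa at 29426 and Pgam2, the muscle form of phosphoglycerate mutase, at 13000. At the other end were Ankrd37 at 10.8, Pfkfb4 at 24.6, and Pfkfb1 and Car9 at 26.6 and 26.7. Slc2a4, the insulin-responsive glucose transporter of muscle, stood at 680.0 in PBS control, above Slc2a1, the constitutive transporter, at 447. In PE control the order of the pair was the opposite, with Slc2a4 at 467 and Slc2a1 at 733. Ldhb likewise stood above Ldha per kb in PBS control (8398 against 7739) and below it in PE control (5912 against 11339).

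**Figure D1:**
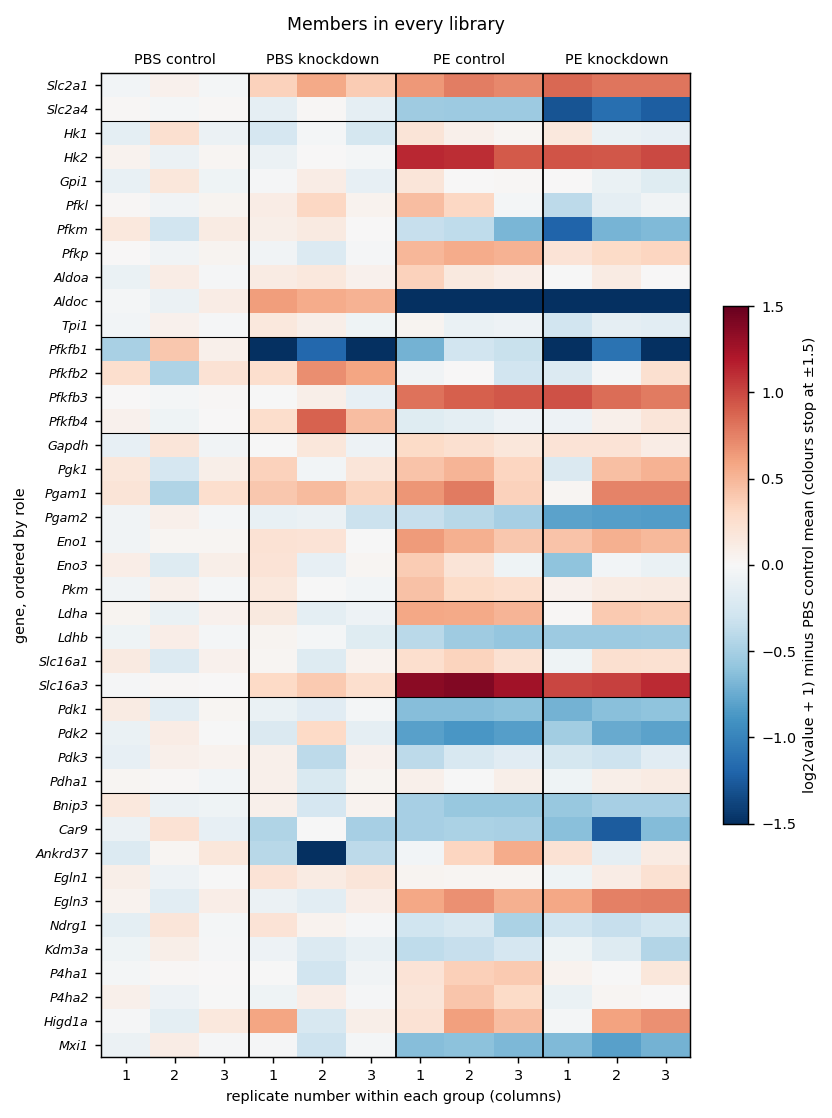
Heat map of the 41 genes (rows, ordered by role) in the 12 libraries (columns), coloured by log2(value + 1) minus the PBS control mean, with colours stopping at 1.5 in either direction. The columns of both PE groups stand apart from both PBS groups in rows such as Hk2, Slc16a3 and Aldoc, and the 2 knockdown groups stand apart in the Pfkfb1 row.

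With PE in control cells, the glucose transporter Slc2a1, the hexokinase Hk2, the lactate exporter Slc16a3 and the regulator Pfkfb3 were higher. Of the muscle isoforms, Slc2a4, Pfkm and Pgam2 were lower, while Eno3 and Aldoa were not called. The aldolase Aldoc and the kinases Pdk1 and Pdk2 were also lower. Of the 41 members, 22 were called at an adjusted p under 0.05 (limma), 12 higher and 10 lower. Over all genes tested in this comparison 25.4% were called, 12.6% higher and 12.8% lower, and 53.7% of the members were. Members are abundant genes, and abundant genes are called more often. Among genes whose mean value reached 100 the background was 35.7% (19.3% higher and 16.4% lower), and 22 of the 37 members in that range (59.5%) were called. The median change of the members was 0.10 on the log2 scale against -0.005 for all genes. Library values of PE and PBS did not overlap for 29 members, with a background of 41.7%. After every library was brought to one total the median of all genes moved to -0.15, and the calls were then 8 higher and 13 lower (51.2% of members against 27.4% of all genes). Without the 3 distant libraries 28 members were called, 17 higher and 11 lower, which is 68.3% of members against 34.0% of all genes.

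The same contrast with the lincRNA-p21 GapmeR compared the other 6 libraries, in the same fit of all 12. It called 19 members, 7 higher and 12 lower, against a background of 27.4% of all genes (13.4% higher and 14.0% lower). Of the members whose mean value reached 100, 18 of 37 (48.6%) were called, and of all such genes 40.8%. The median change of members was -0.07 and that of all genes 0.005. Library values did not overlap for 24 members, with a background of 38.7%. Rescaled to the same total, 5 members were higher and 16 lower, with the median of all genes at -0.13, and without the 3 distant libraries 10 were higher and 11 lower. Both settings called 51.2% of members, against 29.4% and 29.3% of all genes. In both contrasts 7 members were higher and 9 lower, 6 were called in control cells alone and 3 in knockdown cells alone, which does not test a difference between them. The 2 contrasts share no library.

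**Figure D2:**
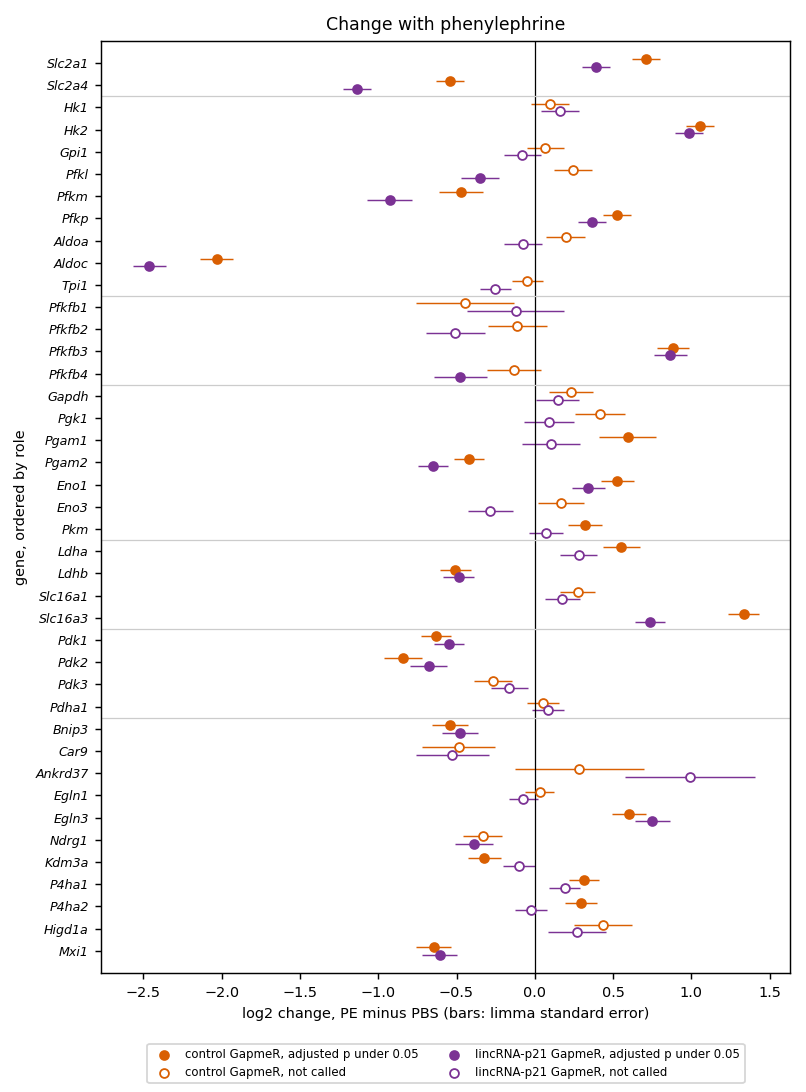
Log2 change with PE for each gene (x axis) with the control GapmeR in orange and the lincRNA-p21 GapmeR in purple, with bars for the limma standard error and filled points for an adjusted p under 0.05. Aldoc lies farthest to the left at -2.03 and -2.46, and Slc16a3 farthest to the right among called points at 1.33 in control cells.

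The 2 glucose transporters moved in opposite directions with PE. Slc2a1 (chromosome 4, 119108711 to 119137983, plus strand) read 1418, 1525 and 1431 in the PBS control libraries and 1851, 2170.1 and 1899.5 in PBS knockdown. It read 2285, 2480.2 and 2401 in PE control and 2646, 2553 and 2542 in PE knockdown, so every PE library was above every PBS library. The rise with PE was 0.71 ± 0.09 in control cells and 0.39 ± 0.09 in knockdown cells (limma, adjusted p = 6.5e-06 and 0.0028). Slc2a4 (chromosome 11, 69942539 to 69948188, minus strand) read 1739, 1675 and 1735 in PBS control and 1560.4, 1731 and 1558 in PBS knockdown. Under PE the values were 1187, 1174 and 1171 in control cells and 698, 785 and 726 in knockdown cells. The 4 groups of Slc2a4 thus fall on 3 levels, with the PBS groups at the top and PE knockdown at the bottom. Its change with PE was -0.54 ± 0.09 in control and -1.13 ± 0.09 in knockdown cells (adjusted p = 1.3e-04 and 1.7e-08).

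In upper glycolysis, 2 of 9 genes rose and 2 fell with PE in control cells, and 2 rose and 3 fell in knockdown cells. The shares of all genes called in these contrasts were 25.4% and 27.4%. Hk2, a hexokinase that traps glucose in the cell and binds mitochondria, read 2440.4, 2229 and 2417 in PBS control and 2227, 2375 and 2318 in PBS knockdown. PE libraries gave 5188, 5085 and 4456 in control and 4526, 4493 and 4697 in knockdown cells, with no overlap with PBS. Hk2 rose by 1.05 ± 0.09 and 0.99 ± 0.09 (adjusted p = 4.4e-08 and 1.1e-07), or 2.08-fold and 1.98-fold. Hk1, the more abundant hexokinase, changed by 0.10 ± 0.12 and 0.16 ± 0.12 and was not called, although it was at 0.22 (adjusted p = 0.026) in control cells without the 3 distant libraries.

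Aldoc (ENSMUSG00000017390.16, chromosome 11, 78322968 to 78327781, plus strand) encodes aldolase C, an isoform best known from brain, and showed the largest change of any member. It read 720.2, 690.2 and 793 in PBS control and 1132, 1081 and 1052 in PBS knockdown. After PE it read 163, 181 and 193 in control and 197, 196 and 197 in knockdown cells. Aldoc fell, with log2 changes of -2.03 ± 0.11 and -2.46 ± 0.11 (adjusted p = 6.2e-11 and 9.0e-12). Aldoa, the muscle aldolase with a far higher level, changed by 0.20 ± 0.12 and -0.07 ± 0.12 and was not called, with 0.25 (adjusted p = 0.041) in control cells without the 3 distant libraries.

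The 3 phosphofructokinase genes, whose product is the main control point of glycolysis, differed from each other. Pfkp, the platelet type, rose by 0.53 ± 0.09 in control and 0.36 ± 0.09 in knockdown cells (adjusted p = 1.5e-04 and 0.0039). In knockdown cells the call was lost after rescaling to the same total (0.22, adjusted p = 0.095). Pitrm1 on the opposite strand shares 748 exon bases with Pfkp and holds 67.0% as much signal. Whether the counting used strand is not given in the sources used here. Reads in the shared bases of such a pair therefore cannot be told apart, and here these are 5.58% of the Pfkp exon bases. Pitrm1 itself changed by 0.24 in control cells (adjusted p = 0.047).

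Pfkm, the muscle type, read 5675, 4166 and 5519 in PBS control and 5370.2, 5576 and 5084 in PBS knockdown. With PE it read 3986, 3901 and 3146 in control and 2209, 3125 and 3205 in knockdown cells. Both PE groups lay below both PBS groups, and PE knockdown replicate 1 was the lowest of all. Pfkm fell, with log2 changes of -0.47 ± 0.14 and -0.93 ± 0.14 (adjusted p = 0.018 and 5.4e-05). In control cells its call was lost without PBS control replicate 1 (-0.39, adjusted p = 0.097), without PBS control replicate 3 (-0.41, adjusted p = 0.085) and without PE control replicate 3 (-0.36, adjusted p = 0.11). Pfkl, the liver type, read 2050.4, 1950.0 and 2079 in PBS control and 2185, 2521 and 2093 in PBS knockdown. Under PE the values were 2790.1, 2508 and 1978 in control and 1538, 1843 and 1959.6 in knockdown cells. Pfkl was not called in control cells (0.24 ± 0.12) and was lower in knockdown cells (-0.35 ± 0.12, adjusted p = 0.038). That call was lost under 10 alternatives, with -0.25 (adjusted p = 0.17) without PE knockdown replicate 1, -0.27 (adjusted p = 0.12) without PBS knockdown replicate 2 and -0.38 (adjusted p = 0.064) without PE knockdown replicate 2. It was also lost without PBS control replicate 1 or 3 or PE control replicate 2, which left the change at -0.35 (adjusted p = 0.051 to 0.052). Gpi1 and Tpi1, isomerases that shuttle between sugar phosphates, were not called with PE, at 0.07 ± 0.12 and -0.05 ± 0.10 in control cells and -0.08 ± 0.12 and -0.25 ± 0.10 in knockdown cells. Tpi1 was called lower in knockdown cells under 5 alternatives, namely the CPM filter (-0.25, adjusted p = 0.034), edgeR with TMM (-0.26, adjusted p = 0.047), DESeq2 (-0.25, adjusted p = 0.016), rescaling (-0.40, adjusted p = 0.0052) and without PBS knockdown replicate 3 (-0.31, adjusted p = 0.047).

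The PFKFB enzymes make and remove fructose 2,6-bisphosphate, the strongest known activator of phosphofructokinase, and Pfkfb3 is the isoform with the highest ratio of kinase to phosphatase activity. Pfkfb3 read 299.8, 293 and 303 in PBS control and 298, 318 and 275 in PBS knockdown. PE libraries gave 526, 558 and 572 in control and 578, 534 and 514 in knockdown cells, all above PBS. It rose by 0.88 ± 0.10 and 0.87 ± 0.10 (adjusted p = 2.8e-06 and 3.7e-06). Pfkfb2, the heart isoform, changed by -0.11 ± 0.19 and -0.51 ± 0.19, and neither was called (adjusted p = 0.052 in knockdown cells). In knockdown cells it was called lower under 8 alternatives, among them edgeR with either scaling (-0.51, adjusted p = 0.038 and 0.036) and DESeq2 (-0.51, adjusted p = 0.030). Leaving out PBS control replicate 2, PBS knockdown replicate 1 or PE knockdown replicate 3 also gave the call (-0.51 to -0.64, adjusted p = 0.020 to 0.036). Pfkfb4 was narrowly called lower in knockdown cells (-0.47 ± 0.17, adjusted p = 0.047). That call was lost without any 1 of 10 libraries, which left it at -0.30 (adjusted p = 0.21) without PBS knockdown replicate 2 and -0.41 (adjusted p = 0.14) without PE knockdown replicate 1. The 2 libraries whose removal kept it were PBS control replicate 2 and PBS knockdown replicate 1.

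In lower glycolysis, 3 of 7 genes rose and 1 fell with PE in control cells, and 1 rose and 1 fell in knockdown cells. The background of all genes called was 25.4% and 27.4%. Eno1, the ubiquitous enolase, rose by 0.53 ± 0.10 in control cells (adjusted p = 7.5e-04) and 0.34 ± 0.10 in knockdown cells (adjusted p = 0.018). Its call in knockdown cells was lost after rescaling (0.20, adjusted p = 0.17) and without PBS knockdown replicate 3 (0.27, adjusted p = 0.098), PE knockdown replicate 2 (0.32, adjusted p = 0.073) or PE knockdown replicate 3 (0.34, adjusted p = 0.054). Eno3, the muscle enolase, was not called (0.17 ± 0.15 and -0.28 ± 0.15).

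The 2 phosphoglycerate mutases moved in opposite directions in control cells. Pgam1, the widely expressed form, read 1885, 1201 and 1968 in PBS control and 2179, 2282 and 2074 in PBS knockdown. After PE it read 2609, 2816 and 2085 in control and 1683, 2753 and 2762 in knockdown cells. PBS control replicate 2 and PE knockdown replicate 1, both among the distant libraries, were the 2 lowest. Pgam1 rose by 0.59 ± 0.18 in control cells (adjusted p = 0.021). Pgam1 was no longer called without PBS control replicate 2 (0.37, adjusted p = 0.14), PE control replicate 1 (0.56, adjusted p = 0.076) or PE control replicate 2 (0.50, adjusted p = 0.10), and after rescaling (0.44, adjusted p = 0.11). In knockdown cells it changed by 0.10 ± 0.18, not called, and by 0.38 (adjusted p = 0.0050) without the 3 distant libraries.

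Pgam2 read 10562, 11487 and 10710 in PBS control and 10092, 10308 and 8742 in PBS knockdown. With PE it read 8616, 8206 and 7703 in control and 6272, 6173 and 6100.3 in knockdown cells, again with PE knockdown as the lowest group. It fell, with log2 changes of -0.42 ± 0.10 and -0.65 ± 0.10 (adjusted p = 0.0030 and 4.1e-05). Pkm, which encodes pyruvate kinase, was called higher in control cells (0.32 ± 0.11, adjusted p = 0.035). The Pkm call was lost after rescaling (0.17, adjusted p = 0.29) and without PBS control replicate 1 or 3, PE control replicate 1 or 2 or PE knockdown replicate 2, with 0.27 to 0.34 and adjusted p = 0.051 to 0.14. With the replicate number as a block its adjusted p was 0.062.

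Gapdh, often used as a reference gene, read 70806, 87419 and 74134 in PBS control and 77122, 86861 and 73142 in PBS knockdown. In PE it read 94016, 91080 and 86685 in control and 89204, 88993 and 83513 in knockdown cells, so the groups overlapped. Its differences with PE were 0.23 ± 0.14 and 0.15 ± 0.14 and were not called, while without the 3 distant libraries it was 0.32 in control cells (adjusted p = 0.014). Gapdh has 177 annotated near-identical copies, which together held 0.991% to 1.44% of the signal of gene and copies. Pgk1 changed by 0.42 ± 0.16 in control cells and missed the threshold (adjusted p = 0.063), with 0.29 and an adjusted p of 0.0040 without the distant libraries.

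Of the 4 lactate genes 2 rose and 1 fell with PE in control cells, and 1 rose and 1 fell in knockdown cells. The background of all genes called was 25.4% and 27.4%. The largest rise of any member in control cells was that of the lactate transporter Slc16a3. This exporter of highly glycolytic cells (ENSMUSG00000025161.17, chromosome 11, 120948480 to 120960868, plus strand) read 309, 318 and 315 in PBS control and 386, 413 and 375 in PBS knockdown. Under PE the values were 806, 825 and 753 in control and 630.5, 642 and 686 in knockdown cells. The 4 groups did not overlap, and both knockdown groups lay between the 2 control groups. Slc16a3 rose by 1.33 ± 0.10 in control cells (2.52-fold, adjusted p = 5.2e-09) and 0.74 ± 0.10 in knockdown cells (1.67-fold, adjusted p = 1.2e-05). Slc16a1, the transporter of most tissues, changed by 0.27 ± 0.11 and 0.17 ± 0.11 and was not called.

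Ldha encodes the lactate dehydrogenase subunit that predominates in glycolytic muscle, and Ldhb that of the adult heart. Ldha read 14388, 13049 and 14702 in PBS control and 15500, 12697 and 13355 in PBS knockdown. PE libraries gave 21027, 20720 and 19995 in control and 14184, 18380 and 18086 in knockdown cells, where replicate 1 fell within the PBS range. Ldha rose by 0.55 ± 0.12 in control cells (adjusted p = 0.0016), and the change of 0.28 ± 0.12 in knockdown cells missed the threshold (adjusted p = 0.087). Without PE knockdown replicate 1 the latter was 0.40 (adjusted p = 0.015), and without PBS knockdown replicate 1 it was 0.36 (adjusted p = 0.034). Ldhb fell, with log2 changes of -0.51 ± 0.10 and -0.49 ± 0.10 in control and knockdown cells (adjusted p = 5.9e-04 and 7.9e-04).

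**Figure D3:**
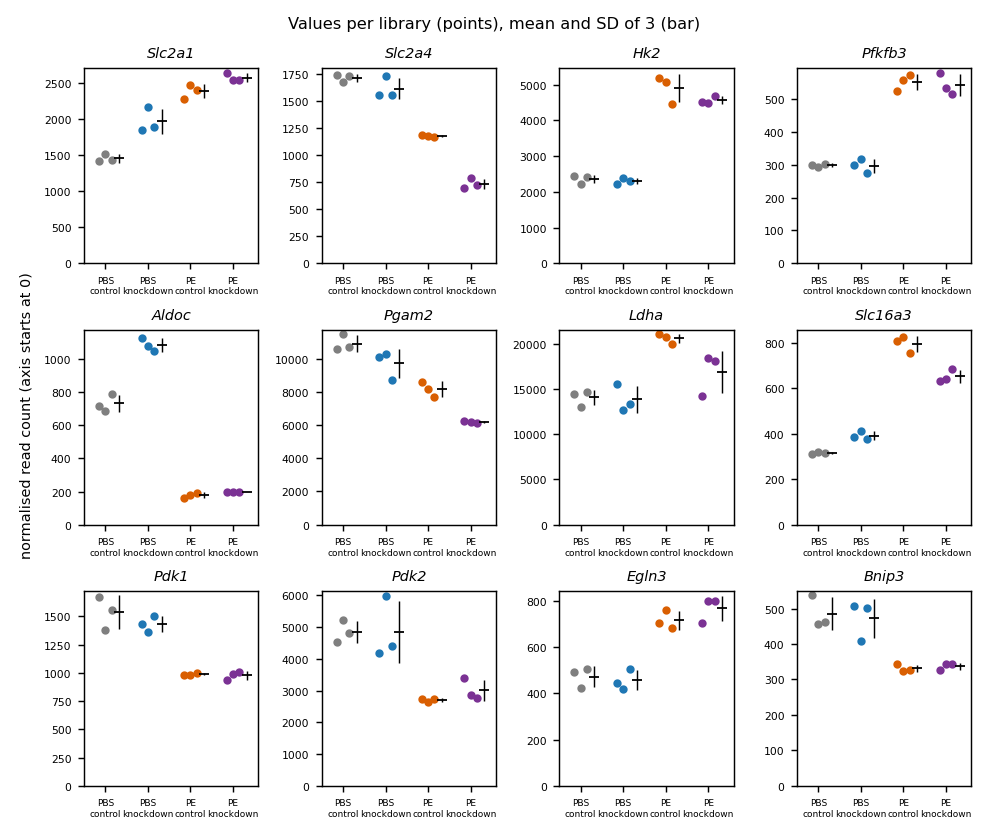
Normalised read counts of 12 genes in each library (points), with the mean and SD of 3 libraries per group (bars), on axes that start at 0. Hk2, Pfkfb3, Slc16a3 and Egln3 are higher and Aldoc, Pdk1, Pdk2 and Bnip3 lower in both PE groups, and Slc2a4 and Pgam2 have their lowest values in PE knockdown.

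The Pdk genes encode kinases that switch off pyruvate dehydrogenase, and Pdk1 and Pdk2 fell with PE while Pdk4, which is not among the 41, rose by 1.07 ± 0.09 and 1.21 ± 0.09. Pdk1, a known HIF target, read 1673, 1374 and 1559 in PBS control and 1428, 1363 and 1503 in PBS knockdown. After PE it read 982, 984 and 999 in control and 934, 993 and 1008 in knockdown cells, all below PBS. It fell, with log2 changes of -0.63 ± 0.09 and -0.55 ± 0.09 (adjusted p = 4.7e-05 and 1.9e-04). Pdk2 read 4519, 5221 and 4806 in PBS control and 4175, 5968 and 4414 in PBS knockdown. With PE it read 2746, 2637 and 2726 in control and 3385, 2865 and 2767 in knockdown cells. Here too no PE library reached the PBS range, and the changes were -0.84 ± 0.12 and -0.68 ± 0.12 (adjusted p = 2.9e-05 and 2.6e-04). Pdk3 was called under 4 alternatives in control cells, among them without the 3 distant libraries (-0.23, adjusted p = 0.034) and without PBS knockdown replicate 2 (-0.27, adjusted p = 0.022). In knockdown cells it was called in the same 2 settings (-0.31 and -0.32, adjusted p = 0.011 and 0.017). With all libraries limma did not call it (-0.27 ± 0.12 and -0.16 ± 0.12), and neither was Pdha1, a subunit of the dehydrogenase itself (0.05 ± 0.10 and 0.09 ± 0.10).

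The 11 other HIF targets did not share a direction, with 3 higher, 3 lower and 5 not called in control cells, and 1 higher and 3 lower in knockdown cells. Of all genes, 12.6% were higher and 12.8% lower in control cells, and 13.4% and 14.0% in knockdown cells. Egln3, an oxygen-sensing hydroxylase that HIF itself induces, read 491, 422 and 506 in PBS control and 444, 421 and 504 in PBS knockdown. It read 703, 759.8 and 684 in PE control and 705, 798 and 801 in PE knockdown, above every PBS library. Egln3 rose by 0.60 ± 0.11 and 0.75 ± 0.11 (adjusted p = 3.6e-04 and 3.2e-05). Bnip3, a mitophagy receptor, moved the other way. It read 539, 456 and 462 in PBS control and 509, 408 and 501 in PBS knockdown. Under PE the values were 344, 325 and 327 in control and 325, 343 and 342 in knockdown cells, all below PBS. Bnip3 fell, with log2 changes of -0.54 ± 0.11 and -0.48 ± 0.11 (adjusted p = 0.0014 and 0.0036). 

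Mxi1, a repressor that competes with Myc for its partner Max, read 475, 546 and 501 in PBS control and 499.6, 409 and 498 in PBS knockdown. PE libraries gave 324, 329 and 317 in control and 320.1, 288 and 309.7 in knockdown cells, all below PBS. Mxi1 fell, with log2 changes of -0.65 ± 0.11 and -0.61 ± 0.11 (adjusted p = 2.2e-04 and 3.7e-04). Ndrg1 changed by -0.33 ± 0.12 in control cells (adjusted p = 0.0505) and was lower in knockdown cells (-0.39 ± 0.12, adjusted p = 0.022). In control cells Ndrg1 was called lower under 10 alternatives, among them edgeR with either scaling (-0.34, adjusted p = 0.048 and 0.044), DESeq2 (-0.34, adjusted p = 0.044) and rescaling (-0.49, adjusted p = 0.0047). It was also called without PBS control replicate 1 (-0.41, adjusted p = 0.045), PBS knockdown replicate 1 or PBS knockdown replicate 2 (-0.33, adjusted p = 0.048 and 0.032). The call in knockdown cells was lost without PBS knockdown replicate 1 (-0.33, adjusted p = 0.084) or PE knockdown replicate 2 (-0.37, adjusted p = 0.074).

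A further 3 HIF targets were called in control cells with small changes, namely the collagen prolyl hydroxylases P4ha1 (0.31 ± 0.10, adjusted p = 0.021) and P4ha2 (0.30 ± 0.10, adjusted p = 0.038) and the histone demethylase Kdm3a (-0.32 ± 0.10, adjusted p = 0.026). P4ha1 and P4ha2 lost their calls after rescaling (0.16 and 0.14, adjusted p = 0.29 and 0.41). P4ha1 also lost its call without PBS control replicate 1 or 3 or PE control replicate 2 or 3 (0.28 to 0.32, adjusted p = 0.058 to 0.087). P4ha2 lost its call without any PBS control library, PE control replicate 2 or 3 or PE knockdown replicate 2 or 3 (0.24 to 0.34, adjusted p = 0.051 to 0.18). Kdm3a lost its call without PBS control replicate 2 or 3 or PE control replicate 1 or 2 (-0.28 to -0.33, adjusted p = 0.063 to 0.094). Among the other HIF targets, 4 had no call in any comparison in the limma fit of all libraries, namely Car9, Ankrd37, Egln1 and Higd1a. Their changes in control cells were -0.49 ± 0.23, 0.28 ± 0.41, 0.03 ± 0.09 and 0.43 ± 0.19. Higd1a, a mitochondrial protein induced by hypoxia, was called in control cells under 5 alternatives, among them without the 3 distant libraries (0.36, adjusted p = 0.016). It was also called there without PBS knockdown replicate 1, PBS knockdown replicate 2 or PE knockdown replicate 1 (0.43, adjusted p = 0.046 to 0.048). In knockdown cells it was called without PBS knockdown replicate 1 or PE knockdown replicate 1 (0.49, adjusted p = 0.043 and 0.048). Car9 was called lower in control and knockdown cells after rescaling (-0.64 and -0.66, adjusted p = 0.043 and 0.034), and Ankrd37 was called in knockdown cells without PBS knockdown replicate 1 (1.25, adjusted p = 0.049). Exons of Ankrd37 and Car9 overlap other genes on the opposite strand. Ankrd37 shares 349 exon bases with Lrp2bp, at 247% of its signal, and 57 with the far more abundant Ufsp2. With PE Lrp2bp changed by -1.38 in control and -0.88 in knockdown cells (limma, adjusted p = 4.2e-04 and 0.014), and Ufsp2 was not called. Car9 shares 214 exon bases with Gm12454, which changed by -1.25 and -1.16 (limma, adjusted p = 0.022 and 0.031).

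Markers of other cell types moved with PE as well. In control cells 8 of 10 fibroblast markers fell, with their summed value going from 73418 to 79304 in PBS control libraries to 42457 to 46509 in PE control. Of 10 endothelial markers 7 rose and 1 fell (sums of 2264 to 2481 against 5940.1 to 6424), and of 10 leukocyte markers 6 rose (2603 to 3249 against 3513 to 4049). Among 8 smooth muscle markers 4 rose and 3 fell (24952 to 28958 against 54284 to 55993), and among 9 cardiomyocyte markers 4 rose and 1 fell (780325 to 889584 against 1263813 to 1543313). Most of the cardiomyocyte sum was Myh6 (means of 323169 in PBS control and 604630 in PE control) and Actc1 (181634 and 431619). Ryr2, Myl3 and Actn2 were also higher. Pln (12041 and 5472) and Myl2 (68361 and 61774) were lower, and Tnnt2 and Tnni3 overlapped between the groups. Most of the smooth muscle sum was Acta2, with means of 20529 in PBS control and 46552 in PE control. Cnn1 (144 and 726) and Cspg4 (2714 and 5944) were also higher, while Myh11 (496 and 172), Rgs5 (271 and 79.2) and Pdgfrb (2722 and 1564) were lower. The part of these shifts in the members' changes was not tested.

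A ratio of 2 genes within a library does not depend on the scaling between libraries. In all 14 such pairs, mostly an inducible or widely expressed isoform over a muscle, heart or more abundant one, were described with no test, as log2 ratios of normalised read counts that are not per length. With PE in control cells 11 of the 14 log2 ratios were higher in every PE library than in any PBS library, and 1, Aldoc over Aldoa, was lower. No share was computed for other pairs of genes, for this count or those below. In this contrast the values of single genes did not overlap for 41.7% of all genes. Slc2a1 over Slc2a4 went from -0.24 ± 0.09 in PBS control to 1.02 ± 0.07 in PE control (mean ± SD, n = 3). Hk2 over Hk1 went from -2.51 ± 0.28 to -1.56 ± 0.07, Pfkp over Pfkm from -0.49 ± 0.21 to 0.51 ± 0.19, and Ldha over Ldhb from 0.36 ± 0.17 to 1.42 ± 0.06. Pgam1 over Pgam2 went from -2.73 ± 0.46 to -1.72 ± 0.17, and Slc16a3 over Slc16a1 from -3.85 ± 0.19 to -2.79 ± 0.04. Each of these 6 pairs shifted by about 1 log2 unit towards the first gene named. Pfkfb3 over Pfkfb2 shifted by 0.99 and Pfkl over Pfkm by 0.72. Smaller shifts were those of Pdk3 over Pdk2 and Egln3 over Egln1 (0.57 each) and Eno1 over Eno3 (0.36). The pairs Slc2a1/Slc2a4, Pfkp/Pfkm, Pgam1/Pgam2 and Ldha/Ldhb join members called in opposite directions, so their shifts follow from those calls. In knockdown cells 10 ratios were higher with PE and 1 lower without overlap. With the lincRNA-p21 GapmeR in PE, the ratios Slc2a1 over Slc2a4, Aldoc over Aldoa and Eno1 over Eno3 were higher without overlap, by 0.79, 0.30 and 0.36, and Ldha over Ldhb was lower, at a difference of -0.26. With it in PBS, Slc2a1 over Slc2a4, Aldoc over Aldoa and Pgam1 over Pgam2 were higher, by 0.52, 0.45 and 0.57, and Pfkfb3 over Pfkfb2 and Egln3 over Egln1 were lower, at -0.53 and -0.22. The ratios Pdk1 over Pdk2 and P4ha2 over P4ha1 overlapped between PE and PBS in both cell states.

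**Figure D4:**
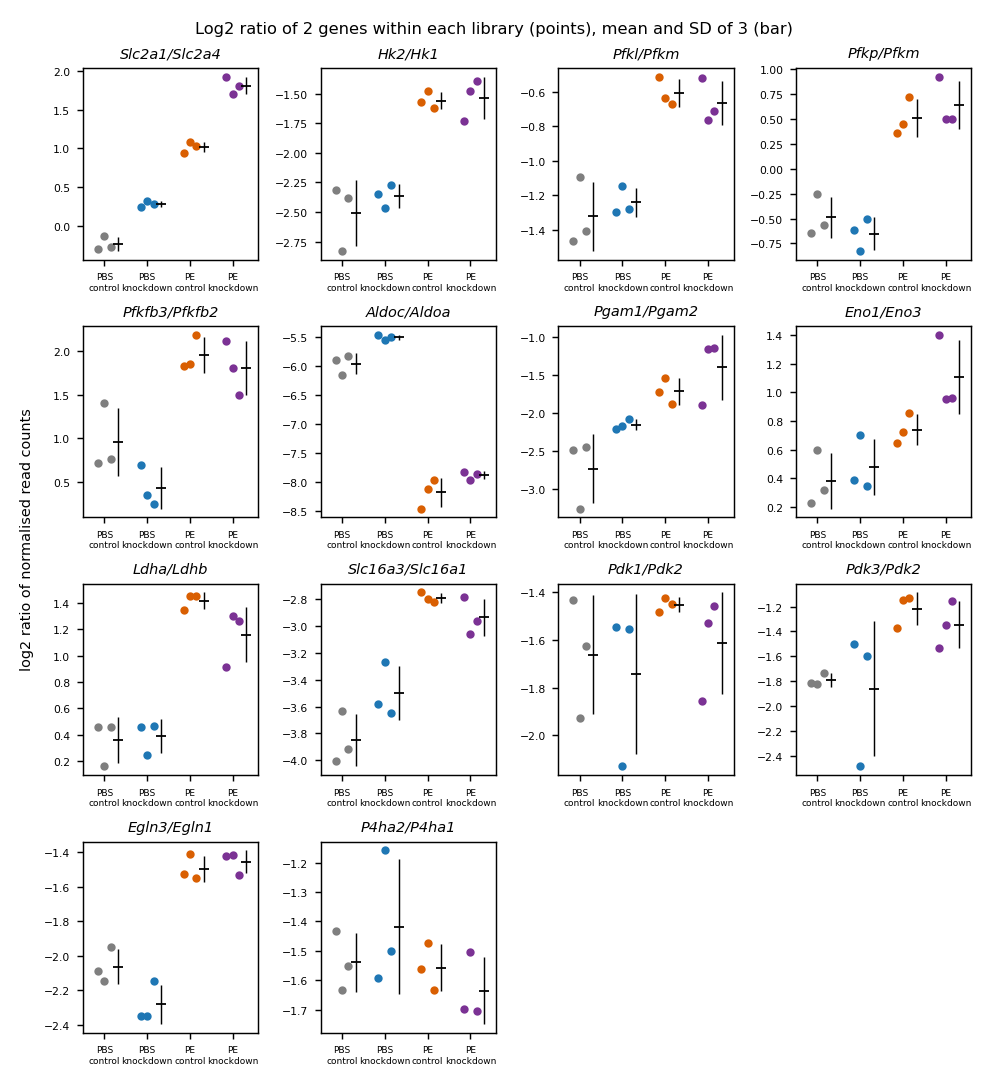
Log2 ratio of 2 genes within each library (points) for 14 pairs, with the mean and SD of 3 libraries per group (bars). The pair Slc2a1/Slc2a4 forms 4 separate levels from -0.24 in PBS control to 1.81 in PE knockdown, and Aldoc/Aldoa is the pair that is lower with PE.

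With PE present, the lincRNA-p21 GapmeR lowered 5 of the 41 members and raised none that passed the test. Over all genes 11.7% were called in this comparison, 4.57% higher and 7.14% lower, so 5 of 41 (12.2%) is close to the background share. Among genes whose mean value reached 100 the background was 18.9% (6.5% higher and 12.4% lower), against 4 of 37 members (10.8%), all lower. The median change was -0.10 for the members and 0.01 for all genes, and 15 members had library values that did not overlap, with a background of 30.5%. The count was 9 (22.0%) without the 3 distant libraries, where 21.4% of all genes were called, and 3 (7.32%) after rescaling to the same total, where 11.9% were. It was also 9 (22.0%) without PBS knockdown replicate 2, where 16.1% of all genes were called. It was 2 (4.88%) without PE control replicate 2 or PE knockdown replicate 1, against 7.8% and 10.2% of all genes. It was 3 (7.32%) without PE control replicate 1, PE knockdown replicate 2 or PE knockdown replicate 3, against 8.06%, 7.67% and 8.06% of all genes.

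Slc2a4 was the one of the 5 that was called under every alternative, with a change of -0.68 ± 0.09 (adjusted p = 2.9e-05). Its 3 PE knockdown libraries, at 698 to 785, lay well below the PE control libraries at 1171 to 1187. Pgam2 changed by -0.40 ± 0.10 (adjusted p = 0.0087), and narrowly lost its call without PE control replicate 1 (-0.36, adjusted p = 0.0501). Pfkl changed by -0.44 ± 0.12 (adjusted p = 0.023). The Pfkl call was lost after rescaling (-0.35, adjusted p = 0.085) and without PE control replicate 1 (-0.33, adjusted p = 0.15), PE control replicate 2 (-0.41, adjusted p = 0.099), PE knockdown replicate 1 (-0.34, adjusted p = 0.11) or PE knockdown replicate 2 (-0.47, adjusted p = 0.052).

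P4ha2 read 602, 541 and 569 in PBS control and 544, 610.1 and 562 in PBS knockdown. After PE it read 646, 761 and 698 in control and 531, 581 and 572 in knockdown cells, so PE control stood above the other 3 groups. The GapmeR changed it by -0.32 ± 0.10 in PE (adjusted p = 0.047), a call lost under 11 alternatives. These include rescaling (-0.24, adjusted p = 0.21) and the removal of PE control replicate 2 (-0.26, adjusted p = 0.22) or 3 (-0.32, adjusted p = 0.11). Without any single PE knockdown library it was -0.28 to -0.35 (adjusted p = 0.093 to 0.13), and without PBS control replicate 1 or 3 or PBS knockdown replicate 3 it stayed at -0.32 (adjusted p = 0.059 to 0.069).

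Members that missed the threshold in PE with an adjusted p under 0.1 were Slc16a3 (-0.28 ± 0.10, adjusted p = 0.070), Pfkp (-0.25 ± 0.09, adjusted p = 0.074), Eno3 (-0.41 ± 0.15, adjusted p = 0.078) and Pfkm (-0.38 ± 0.14, adjusted p = 0.094). Slc16a3 and Pfkp were called without the 3 distant libraries, at -0.26 and -0.22 (adjusted p = 0.036 and 0.021). Pdk1, Pdk2, Pdk3 and Pdha1 did not reach the threshold, with changes from -0.02 to 0.15. Among genes of the same complex that are not among the 41, Dld, the shared dihydrolipoamide dehydrogenase, changed by -0.59 ± 0.14 (adjusted p = 0.0083), and Pdhx was at -0.29 ± 0.09 (adjusted p = 0.054). Beside these values, the summed cardiomyocyte markers, mostly Myh6 and Actc1, were 1263813 to 1543313 in PE control and 1015538 to 1089834 in PE knockdown. Of the 9 markers 1 was called lower, and their median change was -0.36. Smooth muscle sums, mostly Acta2, were 54284 to 55993 against 39136 to 42533, fibroblast sums 42457 to 46509 against 34844 to 38797, and endothelial sums 5940.1 to 6424 against 5043 to 5909, each with 2 markers called lower and no overlap. Of 10 leukocyte markers 0 were called by limma (sums of 3513 to 4049 against 3327 to 3893). Their part in the members' changes was not tested.

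Without PE, the lincRNA-p21 GapmeR was called for 3 members, 2 higher and 1 lower, with a background of 4.57% of all genes (1.36% higher and 3.21% lower). Among genes whose mean value reached 100, 2 of 37 members (5.41%) were called against 7.86% of all such genes (2.28% higher and 5.59% lower). Aldoc was higher by 0.57 ± 0.11 (adjusted p = 0.0030) and Slc2a1 by 0.43 ± 0.09 (adjusted p = 0.0072), in each case with every knockdown library above every control library. The Slc2a1 call was lost when the fit held only the 6 PBS libraries (adjusted p = 0.070). The count without the 3 distant libraries was also 3 (7.32% of members against 8.56% of all genes). Slc16a3 missed the threshold at 0.32 ± 0.10 (adjusted p = 0.077), although its libraries did not overlap. Pfkfb4 missed it at 0.53 ± 0.17 (adjusted p = 0.089). Library values did not overlap for 12 members, with a background of 22.0%. Summed cardiomyocyte markers, mostly Myh6 and Actc1, were 780325 to 889584 in PBS control and 645125 to 703310 in PBS knockdown. Smooth muscle sums, mostly Acta2, were 24952 to 28958 against 20961 to 22779. Neither pair of sums overlapped, and no marker of either list was called by limma. In the fibroblast list 1 of 10 markers was called lower (sums of 73418 to 79304 against 66927 to 79467), and in the leukocyte list 1 of 10 was called higher (2603 to 3249 against 2551 to 2707). Endothelial sums were 2264 to 2481 against 2271 to 2307, with no marker called by limma. The part of these markers in the 3 calls was not tested.

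Pfkfb1, the PFKFB isoform of liver and muscle, was the one member lower with the GapmeR both in PE and in PBS. It read 34.2, 64.4 and 51.0 in PBS control and 16.3, 20.8 and 11.9 in PBS knockdown. With PE it read 29.1, 39.3 and 38.0 in control and 11.8, 21.9 and 11.9 in knockdown cells. No knockdown library reached a control library of the same treatment. Its change was -1.54 ± 0.31 in PBS (adjusted p = 0.0058) and -1.22 ± 0.31 in PE (adjusted p = 0.013). In PE the call was lost without PE control replicate 2 (-1.14, adjusted p = 0.063), PE control replicate 3 (-1.16, adjusted p = 0.055), PE knockdown replicate 1 (-1.07, adjusted p = 0.053) or PE knockdown replicate 3 (-1.08, adjusted p = 0.064). Pfkfb1 is a low gene, and Apex2 on the opposite strand, with 834% of its signal, shares 123 exon bases with it. Apex2 changed by 0.01 in PE and -0.06 in PBS with the GapmeR (adjusted p = 0.99 and 0.87).

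**Figure D5:**
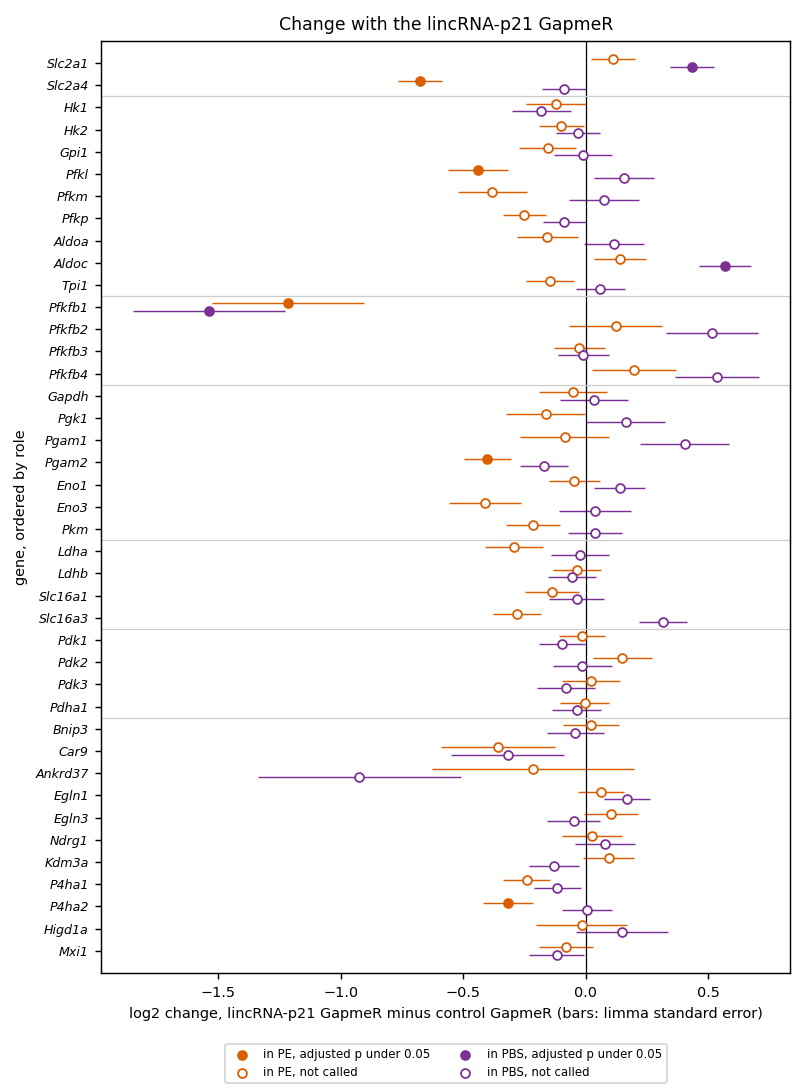
Log2 change with the lincRNA-p21 GapmeR for each gene (x axis), in PE (orange) and in PBS (purple), with bars for the limma standard error and filled points for an adjusted p under 0.05. Filled points are few, with Pfkfb1 far to the left in both treatments, Slc2a4 at -0.68 in PE and Aldoc at 0.57 in PBS.

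Whether PE acted differently with the 2 GapmeRs was tested as the interaction. No member was called by limma or by edgeR with either scaling, against 0.055% of all genes, all of them higher (0.082% where the mean value reached 100), while 8 of 41 (19.5%) had an unadjusted p under 0.05 by limma, against 9.83% of all genes. DESeq2 called 2 members (4.88%), against 0.569% of all genes. Among the 8 members with an unadjusted p under 0.05, the largest interaction terms by limma were those of Slc16a3 (-0.60 ± 0.14, adjusted p = 0.12), Pfkl (-0.60 ± 0.17, adjusted p = 0.28) and Slc2a4 (-0.59 ± 0.13, adjusted p = 0.10). Outside these 8, the low gene Ankrd37 had a larger term with a wide error (0.71 ± 0.58, limma, adjusted p = 0.72). DESeq2 called Slc2a4 and Slc16a3 (-0.59 and -0.60, adjusted p = 0.0033 and 0.016), and limma without the 3 distant libraries called Slc2a4 (-0.48, adjusted p = 0.035), where 0.656% of all genes were called. The median interaction term was -0.15 for the members and -0.005 for all genes. The 2 PE contrasts and the 2 GapmeR contrasts are made from the same 12 libraries, so their values for a member are not independent of each other.

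Other genes of these pathways, from lists that are not members, were described by their calls. The background with PE in control cells was 25.4% of all genes, 12.6% higher and 12.8% lower. Of 12 genes for pyruvate carriers and the dehydrogenase complex, 2 rose and 2 fell with PE in control cells. Pdk4, the Pdk kinase that follows fatty acid use, rose by 1.07 ± 0.09 while Pdk1 and Pdk2 fell, and the phosphatases Pdp1 and Pdp2, which reactivate the dehydrogenase, fell, with log2 changes of -1.06 ± 0.09 and -0.79 ± 0.10. Bsg, the chaperone that carries Slc16a1 and Slc16a3 to the membrane, rose by 0.46 ± 0.10. Of 9 genes for HIF subunits and oxygen sensing 1 rose and 4 fell, among them Hif3a (-1.41 ± 0.24) and Epas1 (-0.60 ± 0.13). Hif1a, the main alpha subunit, was not called in control cells and rose by 0.39 ± 0.11 in knockdown cells. Of 20 other HIF targets 8 rose and 4 fell, with Bhlhe40 at 1.08 ± 0.11, Adm at 0.99 ± 0.11 and Ak4 at -0.79 ± 0.13. Like the member HIF targets, these went both ways.

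Among 10 further glycolytic genes tested, 1 rose, Adpgk, an ADP-dependent glucokinase (0.57 ± 0.11). Of 10 genes of glycogen metabolism 1 rose and 4 fell, with the branching enzyme Gbe1 at 0.80 ± 0.11 and the phosphorylase Pygl at -1.34 ± 0.12. The pentose phosphate pathway had 1 of 7 genes called, Rpia (-0.57 ± 0.14). Of 5 genes of the glucose-sensing MondoA axis 3 rose, and Txnip and Arrdc4, which report glucose entry and restrain it, were at 0.88 ± 0.09 and 1.16 ± 0.11.

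With the lincRNA-p21 GapmeR in PE, 9 genes of these lists were called, 4 higher and 5 lower. The 7 lists held 10, 12, 9, 20, 7, 10 and 5 tested genes. Over all genes 11.7% were called in this comparison, 4.57% higher and 7.14% lower. The calls are listed by gene and are not read as a change of a pathway. Ero1l, an oxidoreductase of the endoplasmic reticulum, rose by 1.07 ± 0.13, the secreted glycoprotein Stc2 by 0.73 ± 0.14, Arrdc4 by 0.51 ± 0.11 and Adpgk by 0.38 ± 0.11. Lower were Adm, which encodes the vasodilator adrenomedullin (-0.66 ± 0.11), the MondoA gene Mlxip (-0.60 ± 0.12), Dld as given above, the glycogen phosphorylase Pygb (-0.59 ± 0.11) and the HIF hydroxylase Hif1an (-0.50 ± 0.10). In PBS 4.57% of all genes were called with the GapmeR, 1.36% higher and 3.21% lower. There it raised Ldhd, a D-lactate dehydrogenase (0.91 ± 0.26), Ero1l (0.55 ± 0.13), the lipid droplet gene Plin2 (0.45 ± 0.09) and Adpgk (0.51 ± 0.11) and lowered Adm (-0.42 ± 0.11).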

How the data were processed

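Poly(A) RNA from 12 libraries of neonatal mouse cardiomyocytes in 4 groups of 3 was sequenced by the authors as paired ends. Per the submitters' processing notes STAR, SAMtools and featureCounts were used with GRCm38.p6. Versions and any use of strand are not given in the sources used here. As deposited, the signal is a table of gene read counts divided by the authors by 1 size factor per library. Whole reads were recovered for 100% of values (tolerance 0.001), with 21325485 to 22139681 reads per library, size factors of 0.921 to 1.11 and mitochondrial shares of 4.33% to 10.7%. The factors matched median-of-ratios factors recomputed from those reads.

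Of 55416 identifiers, 52135 were matched to GENCODE M21, and the rest held 0.195% of the signal. Aldoa has 2 rows, and the higher one was used. The 21799 genes whose mean value reached 1 entered limma 3.58.1 in R 4.3.3 on log2(value + 1), with 4 group means and a trended prior, for 5 comparisons. The threshold was a Benjamini-Hochberg adjusted p of 0.05 over all genes tested. Such a scale understates the changes of low genes. The procedure was tested on simulated data.

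Alternatives were a pseudocount of 0.1, no filter, a filter of 1 CPM in 3 libraries, rescaling every library to the same total, edgeR 4.0.16 and DESeq2 1.42.0 on recovered reads, the replicate number as a block, the compared groups alone, and leaving out libraries. Replicate libraries differed by more than sampling noise (chi-square per degree of freedom 2.42 to 53.5). Copies were searched with blastn 2.17.0 (at least 90% identity over 300 bases): 13 members have one, holding at most 1.99% of the signal. Named genes are all 41 members and up to 4 called genes per comparison from each of 7 further pathway lists, by size of change; Pdhx, which was not called, was named after its value was seen. The members, lists and tests were chosen with earlier results of these data known.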

Additional observations from a re-analysis of the deposited data

How the results depend on the processing

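No member changed direction in a called comparison under any alternative run. Of the 22 members called with PE in control cells 16 were called in every alternative, of the 19 in knockdown cells 14, of the 3 with the GapmeR in PBS 2, and of the 5 with it in PE 1 (Slc2a4). Leaving out 1 library at a time gave 17 to 27, 15 to 22, 3 to 4 and 2 to 9 members in that order, and 0 to 0 for the interaction. The shares of all genes called were then 19.6% to 30.1%, 22.5% to 28.1%, 2.34% to 5.42%, 7.67% to 16.1% and 0.0138% to 0.101%. With the GapmeR in PE, 3 members were called after rescaling to the same total (7.32% against 11.9% of all genes). Without the 3 distant libraries 9 were called (22.0% against 21.4%). With it in PBS, DESeq2 called 5 (12.2% against 6.67%). For the interaction, DESeq2 called 2 members (4.88% against 0.569%) and limma without the 3 distant libraries 1 (2.44% against 0.656%). The cause of these shifts was not tested.

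With the replicate number as a block (replicate block), 20 and 17 members were called with PE in control and knockdown cells, 4 with the GapmeR in PE, 3 with it in PBS and 0 for the interaction. These are 48.8%, 41.5%, 9.76%, 7.32% and 0% of members, against 23.7%, 26.2%, 10.4%, 3.77% and 0.055% of all genes. Correlations of same-numbered libraries ran from -0.435 to 0.409 over 18 pairs, so the numbers were not treated as pairs. With 3 libraries a group, precision is limited for small changes, and depth limits Ankrd37, with 2 reads in its lowest library.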
